A study of Arabidopsis thaliana with 4 samples.

Results

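The genes described here were 10 seed late embryogenesis abundant (LEA) genes of *Arabidopsis thaliana*, taken by their locus identifiers from the 32833 genes counted in each library. They were the dehydrin genes *LEA* (AT2G21490) and *RAB18* (AT5G66400), the pair *EM1* (AT3G51810) and *EM6* (AT2G40170), *ECP63* (AT2G36640), AT5G44310, AT3G15670, AT2G42560, and the seed maturation protein genes AT3G22490 and AT3G22500. The list was chosen on the counts of these same libraries, with the difference between the genotypes already known, so the genotype values of the 10 genes are a description. No p-value is given for them, and where a gene of the list is said to be called, this states only that it passed the thresholds used for all genes, and is no independent evidence of a difference. Compared with the wild-type Col-0, 5 of the genes were lower in *mettl4-1* (*LEA*, *EM1*, AT5G44310, AT3G15670 and *ECP63*), while *RAB18*, *EM6* and AT2G42560 were within 1.5-fold of Col-0 in the fitted fold change, and AT3G22490 and AT3G22500 were at or near 0 counts in all 4 libraries. The 5 lower genes were all rare, with no library above 41 counts.

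RNA was sequenced from whole seedlings at 14 days on MS medium, grown with 16 h of light, in 2 libraries of Col-0 and 2 of *mettl4-1*. The labels give 22 °C, whereas the study's methods give a slightly lower temperature for the plants grown for RNA. The dark period was 8 h by the growth protocol of each sample, whereas the source field of the labels gave 8, 9, 10 and 11 h. *mettl4-1* carries a T-DNA in the first exon of *METTL4*, the methyltransferase gene that modifies U2 snRNA, and is a single insertion line; no rescued line is among the samples analysed here. The counts of *mettl4-1* replicate 2 were deposited under a name with another allele number and under the column name of replicate 1, and the labels, which call both libraries *mettl4-1*, were followed. The sources used here do not say whether the 2 libraries of a genotype came from separately grown plants, so the spread between them may be technical. *METTL4* (AT1G19340) had 355 and 413 counts (Col-0) against 35 and 46 (*mettl4-1*), a log2 fold change of −2.99.

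LEA proteins accumulate in embryos late in seed development, when the seed loses water, and most of them are very hydrophilic and have little fixed structure in solution. They are thought to protect membranes and proteins during drying, and their transcripts are stored in the dry seed and decline after germination. Many LEA genes respond to abscisic acid (ABA), through basic leucine zipper factors such as ABI5 that bind ACGTG-containing elements (ABRE) and, in the embryo, through the B3 factors ABI3 and FUS3, which are linked to the RY element CATGCA. A few, among them *RAB18*, are also expressed in leaves, where ABA and drought induce them.

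The 250 bases before the annotated start of 5 of the genes are shown. Each carries ACGTG, only *LEA* among them also carries CATGCA, and the genes differ in their counts. *LEA*, *EM1* and AT5G44310 had the lowest ratios of *mettl4-1* to Col-0, *EM6* is the relative of *EM1* with little difference, and *RAB18* is the abundant dehydrin gene. Each is given 5′ to 3′ on the strand of the gene, from the RefSeq genome TAIR10.1, with matches to ACGTG and CATGCA on either strand in capitals.
LEA (chr2:9207126-9207375, minus strand): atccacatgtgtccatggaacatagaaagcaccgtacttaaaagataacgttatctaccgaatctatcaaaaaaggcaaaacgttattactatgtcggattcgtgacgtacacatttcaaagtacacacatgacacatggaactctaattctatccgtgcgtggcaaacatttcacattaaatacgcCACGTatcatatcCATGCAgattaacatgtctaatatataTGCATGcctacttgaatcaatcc
EM1 (chr3:19214472-19214721, plus strand): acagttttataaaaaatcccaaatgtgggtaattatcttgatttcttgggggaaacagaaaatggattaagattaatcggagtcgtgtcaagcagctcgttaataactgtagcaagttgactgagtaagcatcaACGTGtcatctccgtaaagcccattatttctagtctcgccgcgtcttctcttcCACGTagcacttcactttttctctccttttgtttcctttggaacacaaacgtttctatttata
AT5G44310 (chr5:17849537-17849786, minus strand): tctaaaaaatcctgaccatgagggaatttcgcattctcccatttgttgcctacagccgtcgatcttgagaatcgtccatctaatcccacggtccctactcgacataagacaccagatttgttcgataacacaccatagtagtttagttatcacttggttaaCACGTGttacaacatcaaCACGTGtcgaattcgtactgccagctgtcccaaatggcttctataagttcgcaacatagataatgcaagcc
EM6 (chr2:16780369-16780618, minus strand): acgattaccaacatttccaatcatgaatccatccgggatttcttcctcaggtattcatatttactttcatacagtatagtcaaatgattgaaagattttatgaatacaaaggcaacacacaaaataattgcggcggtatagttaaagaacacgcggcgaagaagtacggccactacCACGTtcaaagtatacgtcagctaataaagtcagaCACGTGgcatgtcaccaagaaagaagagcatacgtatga
RAB18 (chr5:26519448-26519697, minus strand): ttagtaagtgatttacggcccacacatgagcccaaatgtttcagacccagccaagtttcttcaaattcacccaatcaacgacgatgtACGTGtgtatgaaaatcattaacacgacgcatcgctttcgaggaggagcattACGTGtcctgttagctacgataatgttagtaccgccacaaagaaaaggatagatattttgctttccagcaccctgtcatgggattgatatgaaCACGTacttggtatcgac

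A match to ACGTG lay within 250 bases of the start in 9 of the 10 genes and 2 or more matches in 8 of them, beside 22.9% and 8.84% of the promoters of all 27443 protein-coding nuclear genes. The exception was AT3G22500. The G-box CACGTG, which contains ACGTG on both strands and so counts as 2 such matches, was found in 4 genes (AT5G44310, *EM6*, *ECP63* and AT2G42560), beside 6.49% of all promoters. CATGCA was found in *LEA*, *ECP63* and AT3G22500, beside 8.43% of all promoters. In the other 41 LEA family genes, 68.3% of promoters held ACGTG and 51.2% held 2 or more matches to it. CACGTG was found in 43.9% of these promoters and CATGCA in 12.2%. The G-box was thus no more frequent in the 10 genes than in the rest of the family. ACGTG was present in genes with large differences between the genotypes, such as *LEA* with 1 match and *EM1* with 2. It was also present in genes with small differences, such as *EM6* and *RAB18* with 3 each and AT2G42560 with 5. A match is a description of the letters and does not show that a factor binds there.

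**Figure D1:**
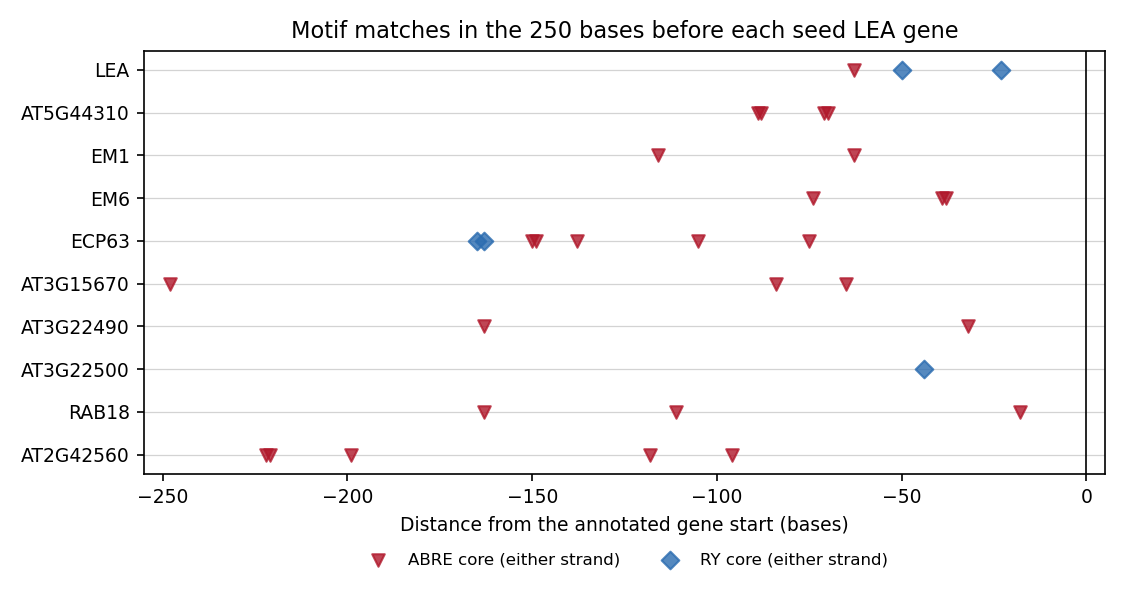
Positions of ACGTG (ABRE core, triangles) and CATGCA (RY core, diamonds) on either strand in the 250 bases before the annotated start of each of the 10 genes; the x axis is the distance from that start in bases. AT3G22500 is the only gene without a triangle, and *LEA*, *ECP63* and AT3G22500 are the only ones with a diamond.

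The proteins were compared through the codons of each gene's longest annotated coding sequence. The mean hydropathy on the Kyte-Doolittle scale, on which lower values are more hydrophilic, was −1.47 for *EM1*, −1.41 for *EM6*, −1.38 for AT5G44310 and −1.37 for AT3G15670, beside a median of −0.29 over 27415 protein-coding genes. *RAB18* (−1.18), *LEA* (−1.03), *ECP63* (−1.02) and AT2G42560 (−0.98) were also far below that median. AT3G22490 (−0.19) and AT3G22500 (−0.34), which hold the seed maturation protein domain, were close to it. Glycine made up 33.9% of the codons of *RAB18*, 20.4% of *EM1* and 18.5% of *EM6*, beside a median of 6.14%. No cysteine or tryptophan codon was present in 6 of the 10 genes, beside 2.39% of all genes. *EM1*, with 152 codons, is longer than *EM6*, with 92, and their coding sequences were identical at 45.9% of aligned positions.

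The genes were spread over the genome of TAIR10.1, with 4 on chromosome 2, 4 on chromosome 3 and 2 on chromosome 5. *LEA* spans chr2:9205990-9207125 and *RAB18* chr5:26518277-26519447, *EM1* spans chr3:19214722-19215831 and *EM6* chr2:16779552-16780368, and AT5G44310 spans chr5:17847781-17849536. *ECP63* lies at chr2:15356830-15358619, AT3G15670 at chr3:5309886-5310988 and AT2G42560 at chr2:17714638-17716912. All but *EM1* are on the minus strand, and each has 2 or 3 annotated exons. Only AT3G22490 and AT3G22500 lie side by side, 781 bases apart, with coding sequences identical at 83.3% of aligned positions. Exons of AT3G22490 matched AT3G22500 over 83.6% of their length, at 83.6% identity, and how the few reads of this pair were divided between them was not tested. The exons of the other 8 genes matched no other nuclear gene by megablast. *RAB18* overlaps AT5G66410 on the other strand and AT3G22490 overlaps AT3G22480 on the other strand. The kit was strand-specific, but the strand setting of the counting is not given in the sources used here.

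The counts summed to between 50862075 and 66003824 per library. Levels are given as CPM, the usual scale of counts relative to library size, here with TMM-scaled library sizes, and 3 counts equal between 0.0450 and 0.0593 CPM in a library. Intervals on the ratios below cover counting error only. Genes encoded in the organelles took 2.68% of the counts of *mettl4-1* replicate 1, beside 0.693% to 1.03% in the other libraries. Leaf, root and flower markers (5 genes each) were detected in every library, at summed levels of 24490 to 27300, 47.2 to 48.2 and 2.29 to 3.13 CPM. All 5 leaf markers were lower in *mettl4-1* at an adjusted p under 0.05 in edgeR, although only *CAB3* passed 1.5-fold. The share of all genes at that adjusted p whatever the fold was not computed, so nothing is read from this count. Of the 5 root markers, 0 were called lower or higher. Of the 5 flower markers, 2 (*AP1* and *PI*) were called higher at 1.5-fold and an unadjusted p under 0.05 in edgeR, beside 0.937% of all tested genes. Their adjusted p in edgeR was 0.19 and 0.12, and DESeq2 called 1 flower marker higher. The log2 fold change was above 0 in 4 flower markers and below 0 in 1 (*SEP3*, −0.20).

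The genotypes were compared by the quasi-likelihood test of edgeR over the 21673 genes that passed the filter on low counts, and a gene was called at a change of at least 1.5-fold and an unadjusted p under 0.05. By this rule 0.683% of all tested genes were called lower in *mettl4-1* and 0.937% higher. With the Benjamini-Hochberg adjusted p under 0.05 in place of the unadjusted one, 0.323% were called lower. Of the 10 seed LEA genes, 8 passed the filter, 5 were called lower and 0 higher, and 4 of the 5 also met the adjusted threshold. AT3G22490 and AT3G22500 did not pass. Since the list was made from this contrast, nothing is read from these counts. The median log2 fold change of the 8 genes was −1.55, beside 0.0015 over all genes tested. A rare gene that passes the filter through its Col-0 counts alone had to be lower in *mettl4-1*. In bulk seedlings, fewer cells with a transcript and less RNA per cell cannot be told apart. For 1 gene in this design of 2 against 2, exact permutation allows no two-sided p below 0.333.

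**Figure D2:**
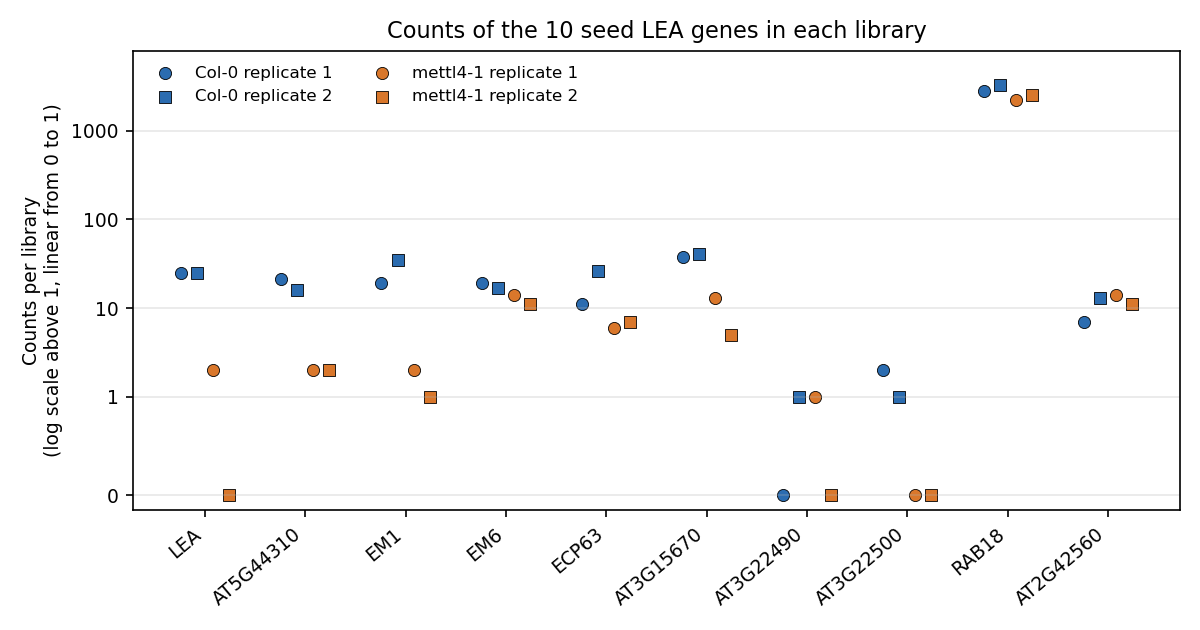
Deposited counts of each of the 10 genes in the 4 libraries (blue, Col-0; orange, *mettl4-1*; circles, replicate 1; squares, replicate 2), on a y axis that is logarithmic above 1 and linear from 0 to 1. *LEA*, AT5G44310 and *EM1* had 16 to 35 counts in Col-0 and 0 to 2 in *mettl4-1*, while *RAB18* had 2208 to 3281 counts.

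Among the dehydrins, *LEA* had 25 and 25 counts (Col-0) against 2 and 0 (*mettl4-1*), or 0.455 and 0.375 CPM against 0.0396 and 0. The 2 genotypes did not overlap, and both *mettl4-1* libraries were under 3 counts. The summed counts gave a ratio of *mettl4-1* to Col-0 of 0.0477, with an exact 95% counting interval of 0.00562 to 0.181. At the Col-0 level the 2 *mettl4-1* libraries together would have given 42.0 counts in place of 2. The fitted log2 fold change of −4.25 (standard error 0.69) depends on the prior count of the model at such low counts. It was −3.31 without *mettl4-1* replicate 2 and −7.58 without *mettl4-1* replicate 1, when a library with no count is left alone.

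*RAB18*, a glycine-rich dehydrin induced by ABA, had 2827 and 3281 counts (Col-0) against 2208 and 2511 (*mettl4-1*). Its level was 50.3 ± 1.52 CPM (SD, n = 2) in Col-0 and 46.2 ± 3.62 CPM (SD, n = 2) in *mettl4-1*, and the log2 fold change was −0.12 (standard error 0.05). *mettl4-1* replicate 2, at 48.8 CPM, was just under the lower Col-0 library at 49.3 CPM, and replicate 1 was at 43.7 CPM. The gene supplied 96.4% of all counts of the 10 genes, so their summed level follows *RAB18* and is not used below. Per kilobase of exon it stood at 46.2 CPM in Col-0, while each of the other 9 genes was under 0.65. *LEA*, the other dehydrin gene, stood at 0.482 CPM per kilobase in Col-0 and 0.0230 in *mettl4-1*.

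The group 1 LEA genes *EM1* and *EM6*, relatives of the wheat Em protein, also differed from each other. *EM1* had 19 and 35 counts (Col-0) against 2 and 1 (*mettl4-1*), with a ratio of summed counts of 0.0662 (counting interval 0.0132 to 0.204) and a log2 fold change of −3.81 (standard error 0.59). *EM6*, which is activated by ABI5, had 19 and 17 counts (Col-0) against 14 and 11 (*mettl4-1*). In CPM its libraries overlapped between the genotypes, 0.345 and 0.255 against 0.277 and 0.214. The ratio of *EM6* was 0.828 (counting interval 0.476 to 1.42) and its log2 fold change −0.27 (standard error 0.38). Per kilobase the 2 genes stood close together in Col-0, at 0.471 CPM for *EM1* and 0.417 for *EM6*, and apart in *mettl4-1*, at 0.0319 and 0.341. The pair is described after both values were known, and the difference between their ratios was not tested.

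Of the 4 genes with the LEA_4 domain, 3 were called lower. AT5G44310 had 21 and 16 counts (Col-0) against 2 and 2 (*mettl4-1*), and AT3G15670 had 38 and 41 against 13 and 5. Their ratios were 0.129 (counting interval 0.0334 to 0.359) and 0.271 (counting interval 0.153 to 0.457), and neither gene overlapped between the genotypes. The log2 fold change of AT3G15670 was −1.87, and it was −2.72 without *mettl4-1* replicate 1 and −1.33 without *mettl4-1* replicate 2. AT5G44310 lies 8477 bases from *RING1A* (AT5G44280), a Polycomb gene with 7045 and 8496 counts (Col-0) against 485 and 506 (*mettl4-1*). The nearest tested gene on each side of AT5G44310 had a log2 fold change of −0.03 and −0.01.

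*ECP63*, named after a protein of embryogenic cells, had 11 and 26 counts (Col-0) against 6 and 7 (*mettl4-1*). Its ratio was 0.419 (counting interval 0.204 to 0.806) and its log2 fold change −1.23 (standard error 0.49). The value leaned on Col-0 replicate 2, without which the log2 fold change was −0.64 and the gene was not called. The call was also lost without *mettl4-1* replicate 1 (−1.14), without *mettl4-1* replicate 2 (−1.34) and with DESeq2 (−1.22). AT2G42560 had 7 and 13 counts (Col-0) against 14 and 11 (*mettl4-1*), the only one of the 8 genes with a positive log2 fold change (0.57, standard error 0.44), and its ratio of 1.49 had a counting interval from 0.794 to 2.83.

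The seed maturation protein genes were almost without reads. AT3G22490 had 0 and 1 counts (Col-0) against 1 and 0 (*mettl4-1*), and AT3G22500 (ATECP31) had 2 and 1 in Col-0 and none in *mettl4-1*. Both genotypes were at or under 3 counts over their libraries, which is 0.0247 CPM in Col-0 and 0.0294 CPM in *mettl4-1*, so a difference was not detectable at this depth and no fold is given.

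**Figure D3:**
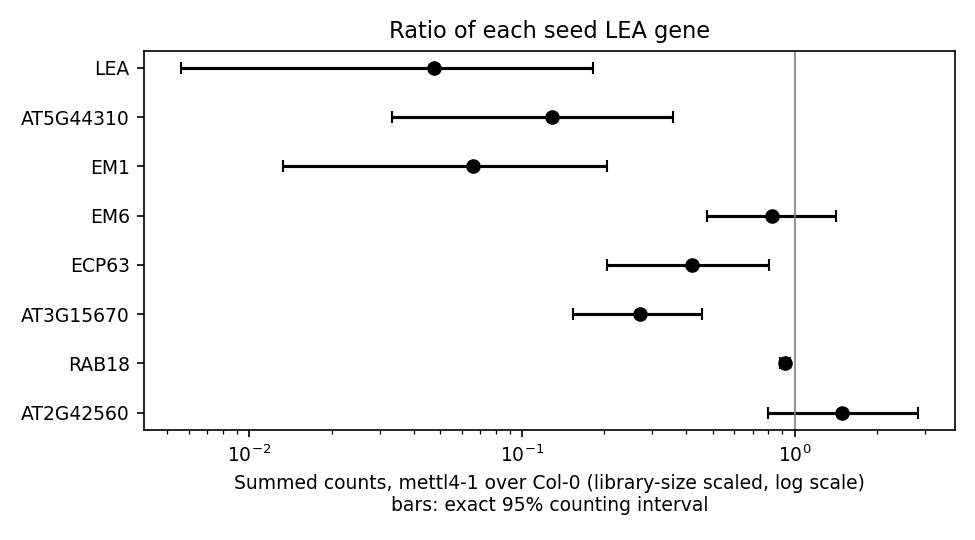
Ratio of summed counts, *mettl4-1* over Col-0 after TMM scaling, for the 8 genes above the floor of 3 counts, on a logarithmic x axis. Points are the ratios and bars the exact 95% counting intervals; the interval of *LEA* ends at 0.181 and that of *EM1* at 0.204, while the intervals of *EM6* and AT2G42560 include 1.

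Over both genotypes, the CPM of both *mettl4-1* libraries lay below both Col-0 libraries in 6 of the 8 tested genes, namely the 5 called genes and *RAB18*. Among all tested genes this was so for 23.0%. AT2G42560 was separated the other way, at 0.127 and 0.195 CPM in Col-0 and 0.277 and 0.214 CPM in *mettl4-1*. Since the list was made from this contrast, nothing is read from these separations. The agreement between replicates was examined by an exact binomial test of the 2 counts of each genotype, given the library sizes. The list was made from these same counts, and the choice may have favoured genes whose replicates agree, so the result is a description. Of the 19 gene and genotype pairs with a count, 1 differed at a Benjamini-Hochberg adjusted p under 0.05. This was *RAB18* in *mettl4-1*, which was 1.12 times higher in replicate 2 (interval 1.06 to 1.18, exact two-sided p = 0.000153, adjusted p = 0.0029). The other 18 pairs did not pass, but most rest on few counts, and the interval of *ECP63* in Col-0 ran from 0.932 to 4.38. After TMM scaling, the summed *RAB18* counts of Col-0 were 1.09 times those of *mettl4-1*.

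The rest of the LEA family was examined in the same way. Of 41 further LEA genes, 28 were tested, and edgeR called 3 lower and 0 higher, beside 0.683% and 0.937% of all tested genes. Whatever the fold, 8 were lower and 1 higher at an unadjusted p under 0.05 in edgeR. The share of all genes at that p whatever the fold was not computed, so nothing is read from such counts here or below. DESeq2 called 2 lower and 0 higher, and limma-voom 3 lower and 0 higher. Their median log2 fold change was −0.06. AT4G21020, a LEA_4 gene, had 28 and 34 counts (Col-0) against 4 and 6 (*mettl4-1*), log2 fold change −2.35 (standard error 0.40, adjusted p = 0.0112, edgeR). Its adjusted p was 0.0507 with the Wald test of DESeq2 and 0.0106 with limma-voom. AT1G72100, also of the LEA_4 group, had 18 and 23 against 6 and 3 counts, a log2 fold change of −1.91 (adjusted p = 0.0650, edgeR). *LEA4-1* (AT1G32560), which despite its name is of the LEA_1 class and not LEA_4, had 11 and 13 against 2 and 3 counts. Its log2 fold change was −1.96 (adjusted p = 0.127, edgeR), and −1.72 without *mettl4-1* replicate 1. The call of *LEA4-1* was lost with DESeq2. The last 2 did not meet the adjusted threshold. All 3 had fewer than 10 counts in both *mettl4-1* libraries and so passed the filter through Col-0 alone, and under a filter of 10 counts in each of the 4 libraries 0 other LEA genes were called lower.

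None of the 2 most abundant further genes in the dehydrin, LEA_4 and seed maturation protein classes was called. The dehydrins *HIRD11* (AT1G54410) and *COR47* (AT1G20440) had 662 ± 1.91 and 409 ± 12.1 CPM in Col-0 and 681 ± 16.1 and 419 ± 1.75 CPM in *mettl4-1* (SD, n = 2), which gave log2 values of 0.04 and 0.03 for the difference (adjusted p in edgeR of 0.487 and 0.644). The chloroplast LEA_4 genes *COR15A* (AT2G42540) and *COR15B* (AT2G42530) are neighbours and close relatives, and how their reads were divided was not tested. They fell by 0.35 and 0.42 on the log2 scale (adjusted p = 0.00849 and 0.0028, edgeR), short of 1.5-fold. *RAB28* (AT1G03120), the most counted seed maturation protein gene, had 19 and 28 counts (Col-0) against 15 and 13 (*mettl4-1*) (log2 fold change −0.49, adjusted p = 0.553, edgeR). *SMP1* (AT3G12960) had at most 3 counts in a library and was not tested.

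Divided by mean level, 18 of the 51 LEA genes of the family list had at least 1 CPM over the 4 libraries, and edgeR called 0 of these (6 lower and 1 higher at an unadjusted p under 0.05 whatever the fold; 0 called by DESeq2 and 0 by limma-voom). Of the 33 rarer genes 18 were tested, and 8 were called lower and 0 higher, with mean levels between 0.123 and 0.415 CPM. Since 5 of these 8 were chosen on this contrast and the other 3 passed the filter through Col-0 alone, nothing is read from the contrast between rare and abundant genes. The remaining 15 had at most 12 counts in any library, and 3 of them had no count at all. All 8 called genes held ACGTG in the 250 bases before the start, beside 22.9% of all promoters. So did 18 of the 28 tested genes that were not called and 11 of the 15 not tested. Given how the 8 were chosen and filtered, nothing is read from these counts either.

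**Figure D4:**
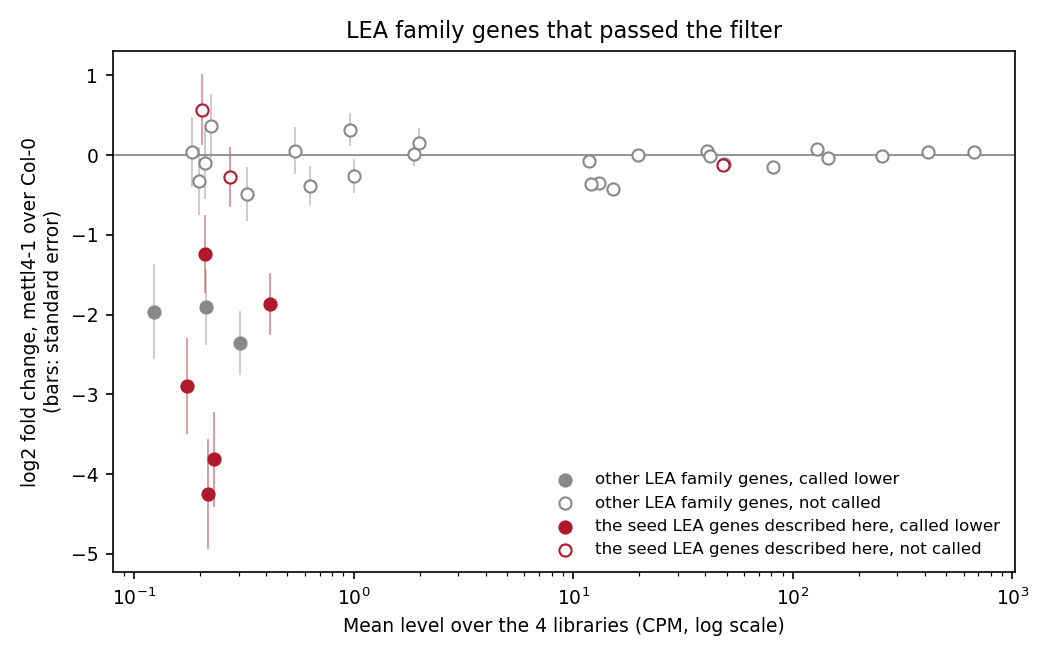
Log2 fold change of *mettl4-1* over Col-0 (y axis, bars are standard errors) against the mean level in CPM (x axis, logarithmic) for the 36 LEA family genes that passed the filter. Red marks the seed LEA genes described here and grey the other LEA genes; filled points were called lower, and all 8 of them lie at mean levels of 0.415 CPM or less.

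Genes of other seed products were examined too, in a list written with earlier results of these data known. Of 23 storage protein, oil body and other seed genes taken as markers of seed or embryo, 22 were tested. All 22 were called lower in *mettl4-1*, beside 0.683% of all tested genes, and 21 also met the adjusted threshold, beside 0.323% (edgeR). Genes such as *SESA1* and *SESA4*, with fewer than 10 counts in both *mettl4-1* libraries, passed the filter through Col-0 alone and had to be lower. Under a filter of 10 counts in each of the 4 libraries, 7 other seed genes were called lower. Their summed level was 105 and 103 CPM in Col-0 and 7.04 and 7.38 CPM in *mettl4-1*. *CRU3* and *CRA1*, which encode the cruciferin storage globulins, and *SESA4*, a 2S albumin gene, had log2 fold changes of −5.13, −3.35 and −7.15 (highest adjusted p = 2.06e-08, edgeR). *CRU2*, AT1G03890, *SESA1*, *SESA3* and *SESA5* had no count in either *mettl4-1* library, and neither had *HSD1*, which was not tested and had 0 and 2 counts in Col-0. The seed LEA genes without *RAB18* summed to 2.58 and 2.63 CPM in Col-0 and to 1.07 and 0.719 CPM in *mettl4-1*. The part of seed or embryo material in the difference was not tested.

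**Figure D5:**
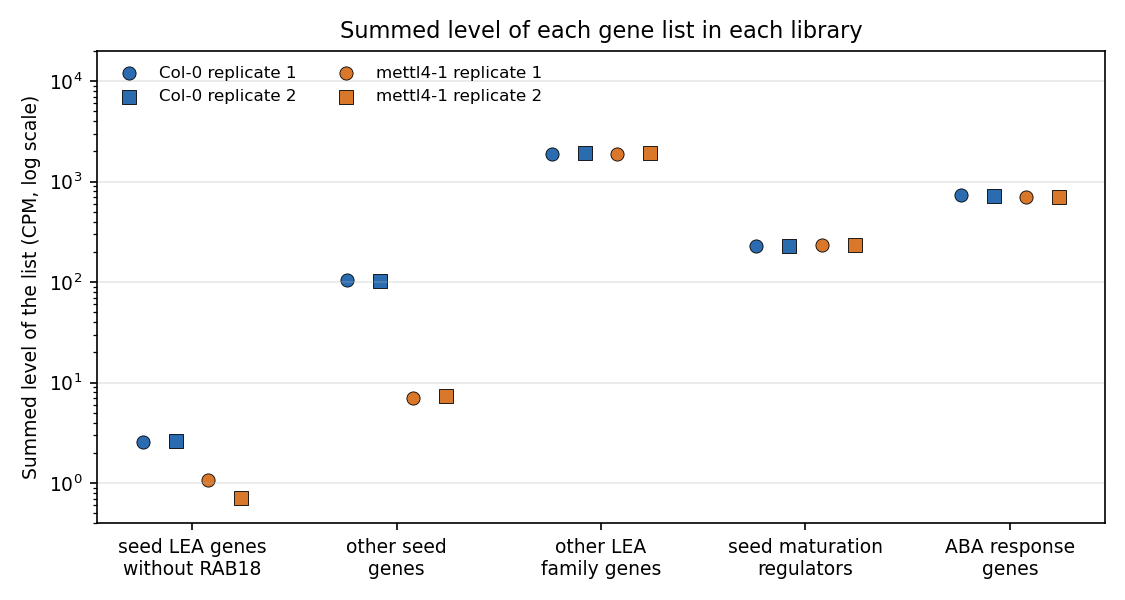
Summed level of each gene list in each library in CPM, on a logarithmic y axis (blue, Col-0; orange, *mettl4-1*; circles, replicate 1; squares, replicate 2). The seed LEA genes without *RAB18* and the other seed genes were lower in both *mettl4-1* libraries (0.719 to 1.07 and 7.04 to 7.38 CPM), while the other LEA family genes lay between 1879 and 1944 CPM in each library.

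The known regulators of these genes were examined with 15 genes, of which 8 were tested. Of these 8, only *ABI3* (AT3G24650), the B3 factor of seed maturation, was called, beside 0.683% of all tested genes called lower and 0.937% higher. It had 30 and 26 counts (Col-0) against 3 and 3 (*mettl4-1*) (log2 fold change −2.93, standard error 0.48, adjusted p = 0.00965, edgeR). With so few *mettl4-1* counts it passed the filter through Col-0 alone and had to be lower. Under a filter of 10 counts in each of the 4 libraries 0 regulators were called. Nothing is said of the regulators too rare to be tested. *ABI5* (AT2G36270), the leucine zipper factor that acts on *EM6*, had 87 and 87 counts (Col-0) against 85 and 95 (*mettl4-1*), a log2 fold change of 0.30 (adjusted p = 0.466, edgeR). *FUS3* (AT3G26790) had 3 and 9 against 5 and 3 counts and was not tested.

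Of 26 genes that respond to ABA or drought in seedlings, all were tested and edgeR called 0. Among all tested genes 0.683% were called lower and 0.937% higher, so a list of 26 with 0 calls is not read as a result. Whatever the fold, 4 were lower and 4 higher at an unadjusted p under 0.05 in edgeR, with no share over all genes to set beside them. DESeq2 and limma-voom also called 0. The summed level of the list was 741 and 723 CPM in Col-0 and 698 and 702 CPM in *mettl4-1*. *RD29A* (AT5G52310) fell by 0.20 on the log2 scale (adjusted p = 0.0352, edgeR), and *RD29B* (AT5G52300) had a log2 fold change of 0.51 (adjusted p = 0.234, edgeR). Around the seed LEA genes themselves, the nearest tested gene on each side was called in 0 of 18 cases by edgeR, DESeq2 and limma-voom. Of these neighbours 1 had an unadjusted p under 0.05, *COR15A* beside AT2G42560.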

How the data were processed

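RNA from 14-day seedlings of Col-0 and *mettl4-1* was sequenced with 2 replicates each, using a strand-specific kit for mRNA. The authors trimmed reads with Cutadapt 3.5, mapped them to TAIR10 with Hisat2 2.2.1, kept those of high mapping quality with SAMtools 1.13, and deposited raw whole-number counts per gene from FeatureCounts 2.0.1. The mapping-quality threshold and the annotation, strand, overlap and multi-mapping settings are not given in the sources used here. The labels were followed for 1 *mettl4-1* library whose column header repeats that of the other.

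Counts were analysed with edgeR 4.0.16 in R 4.3.3 (TMM, filterByExpr at 10 counts, then glmQLFit with glmQLFTest, genotype as the only term), and p-values were Benjamini-Hochberg adjusted over all 21673 genes tested. Called genes changed at least 1.5-fold at an unadjusted p under 0.05, the thresholds of the study's methods. limma 3.58.1 and DESeq2 1.42.0 served as alternatives, with other scalings, filters and thresholds, a replicate block, removal of organelle genes and omission of each library. The omission of a library leaves 1 sample in a genotype, which is assumed to vary like the other. Counting intervals and replicate tests used exact binomial tests in SciPy 1.17.1. Positions, names and sequences came from the RefSeq genome and annotation of TAIR10.1, which held all 130 listed genes; the deposited counts carry no coordinates. Exons were compared with megablast (BLAST 2.17.0), and coding sequences by global alignment in Biopython 1.88. The fit was tested on simulated data in which only genes above a minimum mean count were changed. It gave 18 false calls at an adjusted p under 0.05 among 21673 genes. Most of the 10 genes lie below that mean, so the test does not cover them.

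The 10 genes and the gene lists were chosen with earlier results of these data known. The lists were written from general knowledge: 51 LEA genes, 23 other seed genes, 15 regulators, 26 ABA response genes and 15 tissue markers. Genes named in the text were the 10 genes, *METTL4*, each other LEA gene called, the 2 LEA genes of highest mean CPM in each class of the 10 genes, *ABI3*, *FUS3*, *ABI5*, *RD29A* and *RD29B*, each regulator or ABA response gene called, the 3 other seed genes of smallest p, and called neighbours. *RING1A*, *CAB3*, *AP1*, *PI*, *SEP3*, *CRU2*, AT1G03890, *SESA1*, *SESA3*, *SESA5* and *HSD1* were named after their values were seen.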

Additional observations from a re-analysis of the deposited data

How the results depend on the processing

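With at least 10 counts in every library, only *EM6* and *RAB18* of the seed LEA genes remained in the test, because that filter removes any gene with fewer counts in at least 1 library of either genotype. Their median log2 fold change was −0.20, and 0 seed LEA genes, 0 other LEA genes, 7 other seed genes, 0 regulators and 76 genes in all were called lower. With the adjusted p, 138 genes were called (70 lower, 68 higher), 1 of them an other LEA gene; with a 2-fold threshold 214 (91 lower, 123 higher); and with DESeq2's Wald test 206 (85 lower, 121 higher). Without the organelle genes 128 were called higher. With each library left out in turn, 361 to 442 genes were called (147 to 184 lower, 186 to 260 higher), with 4 to 5 seed LEA genes lower at a median log2 fold change of −1.93 to −1.298, 2 to 3 other LEA genes, 22 other seed genes each time, 1 to 2 regulators and 0 to 1 ABA response genes. The median of −1.93 came without *mettl4-1* replicate 1.

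No pairing of the libraries by replicate number was seen: the correlation of the replicate differences was −0.02 across 21673 genes. Such a value does not exclude a pairing, since counting error adds to the differences. The fit with the replicate block called 5 seed LEA genes lower, as without it, and gave *EM1* a log2 fold change of −3.79. The other alternatives, size factors of DESeq2, no filter and limma-voom, left the calls of the seed LEA genes at 5. Depth limits the rare genes most: between 0 and 41 counts in a library stand behind every seed LEA gene but *RAB18*.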
